A study of Mus musculus with 10 samples.

Results

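Accessible regions of Myc-CaP cells, an established mouse prostate cancer line, were compared across a 2 × 2 design of oxaliplatin (Oxali) and interferon-γ (IFNγ), and the combination was set against the sum of the single treatments. The set held 86799 merged regions called in all 4 peak lists of the design, of 195578 regions that these lists hold together and 211107 with the cisplatin list of the series, which was left out. Untreated cells (Ctrl), 2 µM Oxali, IFNγ at 1000 pg (per ml by the study's methods, with no volume in the labels), and Oxali + IFNγ were each sampled at 48 h by ATAC-seq, in which a transposase inserts adapters into open chromatin. Each group had 2 libraries that the authors pooled before peak calling, so each group is 1 list, no spread between replicates can be given and no test against it could be made. All groups share the same parental line, which came from a prostate tumor of a MYC transgenic mouse.

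The level of a region was its highest summit pileup, the number of fragment ends piled within the smoothing window, divided by the genome background of its list. That background, which follows depth, was 12.1 (Ctrl), 11.3 (Oxali), 9.62 (IFNγ) and 12.9 (Oxali + IFNγ). Relative to Ctrl, depth was thus 92.9% for Oxali, 106% for the combination and 79.3% for IFNγ. The departure of a region was the log2 ratio of Oxali + IFNγ to Ctrl minus the log2 ratios of Oxali to Ctrl and of IFNγ to Ctrl. It is 0 where the treatments add on the log2 scale, above 0 where the combination exceeded their sum and below 0 where it fell short. The control pileup enters the sum of the single treatments 2 times and the combination 1 time, so a control pileup that is high by chance raises the departure. Intervals are 95% intervals from the counts of the 4 lists. They leave out any variation from library to library, and they may be too narrow because ends of the same fragment can count separately.

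Oxaliplatin is a platinum drug that crosslinks DNA and perturbs the nucleolus, where ribosome production takes place. IFNγ binds a receptor made of IFNGR1 and IFNGR2, activates the kinases JAK1 and JAK2, and leads to transcription factor dimers that bind gamma-activated sites (GAS). The factor IRF1 is induced early, and interferon regulatory factors bind the interferon-stimulated response element (ISRE) at genes of antigen presentation and antiviral defense. The transcription factor NF-κB is a further activator of many of these genes, and the study asked where both agents act together on them.

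The reference sequences below are those to which the results return. Start-site regions of 6 interferon genes were chosen because their combination level lay above the sum and they held a motif match, and the capitals mark matches to an ISRE core (GAAANNGAA) or a GAS (TTCNNNGAA), searched on both strands within 100 bp of the control summit. They are not the full set. Among listed regions whose interval lay above 0, those of Nlrc5, Oasl2, Irgm1, Socs1, Psme1 and Trim25 at their 5′ ends also held an ISRE match. Those of Irf1, Irf9 and Relb held a GAS match. Many others with an interval above 0 held neither match. Among them were Gbp6, H2-D1, H2-K1, Ifngr1, Ifnar2, Tyk2 and Canx at their 5′ ends, and the start within Ifngr2. Overlapping matches were allowed, and over all start-site regions 3.82% held an ISRE match and 4.56% a GAS match. Bases in annotated untranslated regions were left out, and each sequence is from GRCm38, the assembly of mm10 (C57BL/6J strain), on the strand of the gene.
Tgtp1 region, chr11:48992259-48992346 (-): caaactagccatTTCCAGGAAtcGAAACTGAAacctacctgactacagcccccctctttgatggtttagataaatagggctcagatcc
Irgm2 region, chr11:58214845-58215007 (+): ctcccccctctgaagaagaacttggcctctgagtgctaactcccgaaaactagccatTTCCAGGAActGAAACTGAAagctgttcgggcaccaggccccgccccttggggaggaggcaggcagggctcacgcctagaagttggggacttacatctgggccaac
Gbp7 region, chr3:142530199-142530341 (+): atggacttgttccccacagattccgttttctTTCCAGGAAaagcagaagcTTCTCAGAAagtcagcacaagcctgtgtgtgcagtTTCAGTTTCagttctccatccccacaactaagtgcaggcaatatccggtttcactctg
B2m region, chr2:122147518-122147685 (+): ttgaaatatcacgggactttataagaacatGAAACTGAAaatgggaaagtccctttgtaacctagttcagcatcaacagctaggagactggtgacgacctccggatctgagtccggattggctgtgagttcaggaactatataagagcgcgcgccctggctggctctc
Cd274 region, chr19:29367329-29367454 (+): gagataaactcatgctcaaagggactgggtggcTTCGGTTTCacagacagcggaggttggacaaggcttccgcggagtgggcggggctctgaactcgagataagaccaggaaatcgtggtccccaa
Oas3 region, chr5:120777662-120777802 (-): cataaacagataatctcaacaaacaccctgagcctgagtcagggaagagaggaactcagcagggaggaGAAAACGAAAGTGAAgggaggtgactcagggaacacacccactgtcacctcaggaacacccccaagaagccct

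In the Tgtp1 and Irgm2 regions a GAS match stood 2 bases from an ISRE match. For 2 of the intronic regions furthest below the sum, the capitals mark AP-1 matches (TGANTCA). The region in the long noncoding gene Gm5444 is a tandem repeat, not marked as one in the masked genome, that carries 5 of them. The last sequence, in an intron of Igf2bp3, is the region furthest above the sum among those that passed the filter of the named regions, and held neither an ISRE nor a GAS match.
Gm5444 intron, chr13:4778444-4778644 (+): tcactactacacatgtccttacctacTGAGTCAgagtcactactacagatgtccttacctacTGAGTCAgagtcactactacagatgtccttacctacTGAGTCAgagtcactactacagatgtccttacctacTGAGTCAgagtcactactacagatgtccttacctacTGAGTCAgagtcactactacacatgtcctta
Desi2 intron, chr1:178217292-178217492 (+): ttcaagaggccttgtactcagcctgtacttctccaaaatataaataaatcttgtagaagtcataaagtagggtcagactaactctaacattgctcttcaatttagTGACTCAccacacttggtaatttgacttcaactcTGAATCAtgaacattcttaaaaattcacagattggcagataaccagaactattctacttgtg
Igf2bp3 intron, chr6:49143941-49144141 (-): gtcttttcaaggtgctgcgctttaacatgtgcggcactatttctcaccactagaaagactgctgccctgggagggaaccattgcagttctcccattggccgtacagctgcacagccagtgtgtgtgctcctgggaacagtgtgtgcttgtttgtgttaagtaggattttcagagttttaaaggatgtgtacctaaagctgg

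Across the genome the combination lay close to the sum of the single treatments, and slightly above it. At the 20187 start-site regions, which overlapped 1 kb on either side of a GENCODE M21 transcript start, the median departure was 0.13, with 25% of regions below -0.03 and 25% above 0.32. At the 66612 other regions the median was 0.18, with the same limits at -0.10 and 0.46. Exonic regions had a median of 0.23 (n = 3171), intronic regions 0.19 (n = 33550) and intergenic regions 0.16 (n = 29891). The counting interval of the departure spanned 0 at 68.5% of start-site regions and 73.0% of the others. It lay above 0 at 26.8% of start-site and 21.6% of other regions, and below 0 at 4.72% and 5.42%. The SD of the departure over regions was 0.33 at start sites and 0.45 elsewhere, against 0.22 and 0.31 from counting alone.

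**Figure D1:**
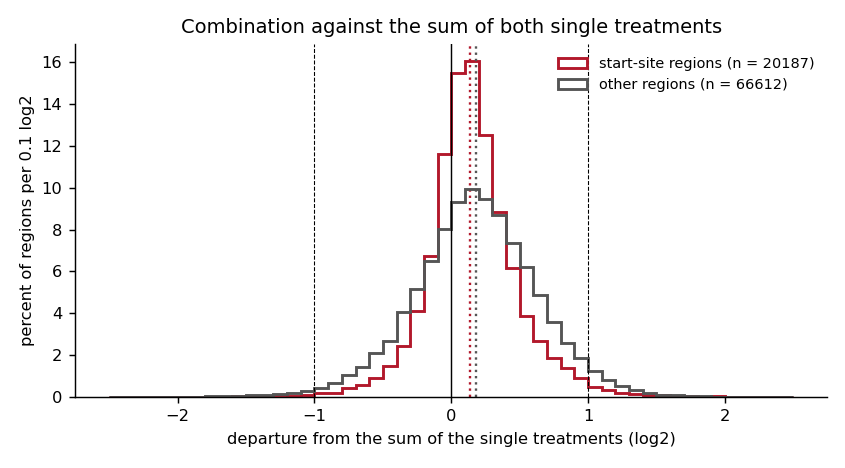
Percent of regions (y axis) in steps of 0.1 of the departure from the sum of the single treatments (x axis, log2), for 20187 start-site and 66612 other regions. Solid line, 0; dashed lines, 2-fold departures; dotted lines, medians of 0.13 and 0.18; 2 regions beyond the axis are drawn in the outermost step.

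The sign of these medians depended on the scaling of the lists. When each log2 ratio was centred on its median over start-site regions, every departure fell by 0.21 on the log2 scale, and the medians became -0.08 at start sites and -0.03 elsewhere. The difference between regions, rather than the position of 0, is therefore what the lists show most directly. With the local background of each peak in place of the genome background, the medians were 0.07 and 0.16.

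The single treatments took unlike shapes at start sites and elsewhere. At start-site regions the median log2 ratio to Ctrl was -0.25 with Oxali, -0.43 with IFNγ and -0.47 with the combination. At other regions Oxali stood at 0.25, IFNγ at -0.19 and the combination at 0.27. Oxali + IFNγ over Oxali had a median of 0.00 at other regions and -0.26 at start-site regions, so in the median the shortfall of IFNγ against Ctrl at other regions was not seen on top of Oxali. The IFNγ list was the lowest of the 4 at 52.2% of other regions and at 32.4% of start-site regions. It also had the lowest depth, whose part in these medians was not tested.

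Lower levels with each agent added up at the strongest start sites. In the highest of 10 classes of mean level, 6577 start-site regions had medians of -0.53 with Oxali, -0.57 with IFNγ and -0.998 with the combination, and a median departure of 0.10. In the class below it the 3 medians were -0.34, -0.49 and -0.69. In the 3rd class from the bottom, start-site regions instead stood at 0.37 with Oxali, -0.22 with IFNγ and 0.41 with the combination. Departures were largest in the middle classes, with medians of 0.25 in the 5th class at both kinds of region, and came down to 0.10 at start sites and 0.07 elsewhere in both the lowest and the highest class. GC content moved with level: in the class richest in GC, with a median of 70.1% GC, 7311 start-site regions had medians of -0.47, -0.59 and -0.95 and a departure of 0.12. Level, GC content and treatment cannot be told apart here.

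**Figure D2:**
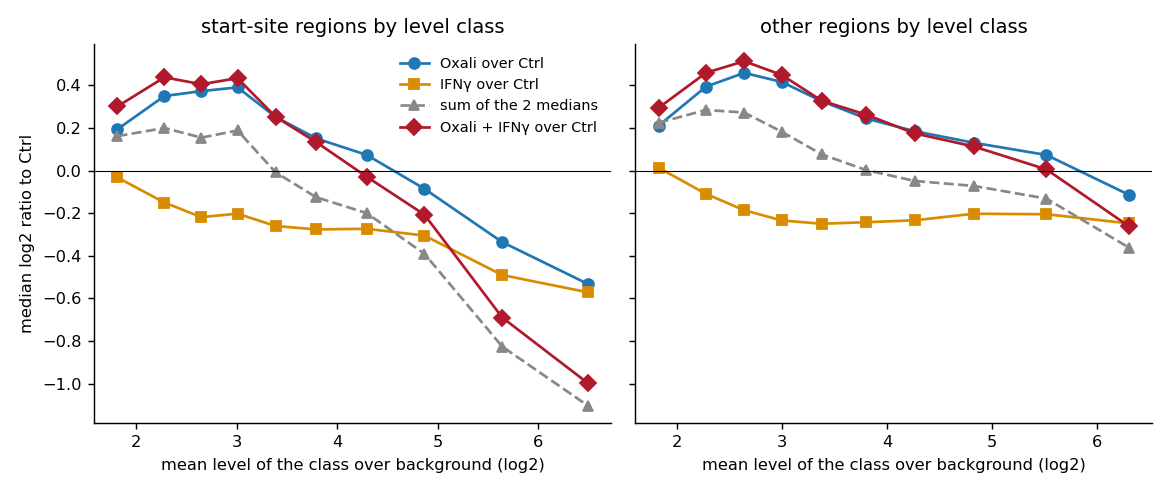
Median log2 ratio to Ctrl (y axis) in 10 classes of mean level over background (x axis, log2), for start-site regions (left) and other regions (right). Circles, Oxali; squares, IFNγ; diamonds, Oxali + IFNγ; triangles, the sum of the single-treatment medians, which the combination follows down to -0.998 in the highest start-site class.

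The effect of each agent was next compared without and with the other, using ratios that share no list. The Oxali effect was much alike in both settings. Over the 86799 regions, Oxali over Ctrl and Oxali + IFNγ over IFNγ had a Pearson r of 0.82 (Spearman rho 0.80). Where Oxali alone was at least 2-fold above Ctrl (11885 regions, median 1.35), the ratio on top of IFNγ had a median of 1.44, with 25% of regions below 1.07 and 25% above 1.84. Where Oxali alone was at least 2-fold below (688 regions, median -1.13), it was -0.67 on top of IFNγ. Regions in a list share its depth and base composition, so these values describe the lists and carry no p.

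The IFNγ effect carried over less. IFNγ over Ctrl and Oxali + IFNγ over Oxali had an r of 0.39 (rho 0.39) over all regions, 0.60 at start sites and 0.27 elsewhere. At the 395 regions that IFNγ alone put at least 2-fold above Ctrl, with a median of 1.14, the ratio on top of Oxali had a median of 0.18. At the 2427 regions at least 2-fold below Ctrl, with a median of -1.11, it was -0.31. Counting error draws values selected in this way toward the median of all regions, and its part here was not tested. Where every pileup was at least 200 the r was 0.70 (n = 24594), with medians over all these regions of -0.35 for IFNγ over Ctrl and -0.21 for Oxali + IFNγ over Oxali. Of them, 5185 regions between 1.5-fold and 2-fold below Ctrl (median -0.71) stood at -0.53 on top of Oxali, and 130 regions between 1.5-fold and 2-fold above Ctrl (median 0.67) stood at 0.09. Both medians are below 0, so how far each side moved depends on the scaling of the lists.

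**Figure D3:**
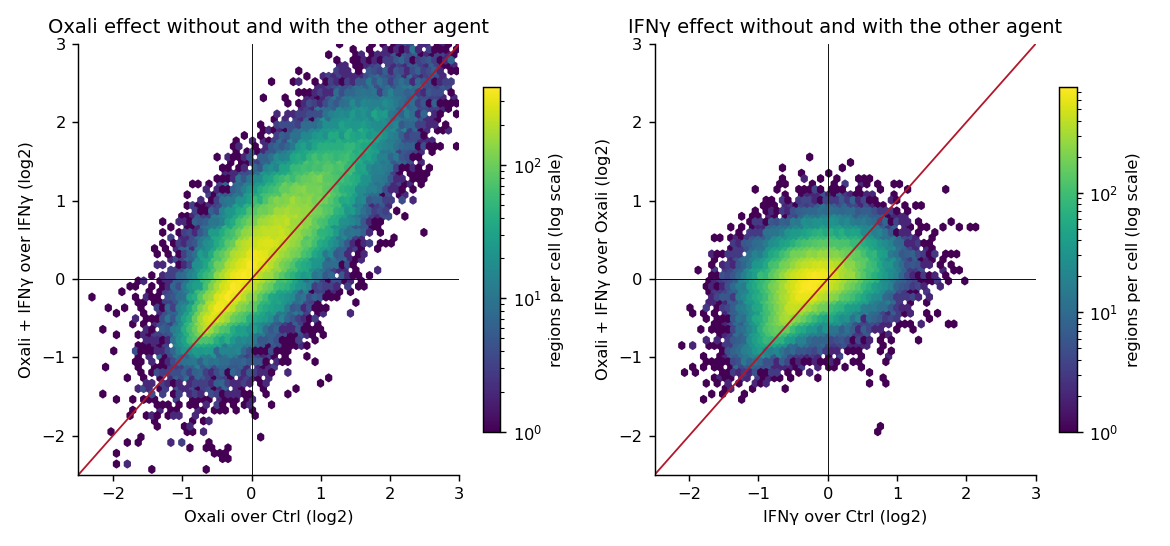
Effect of Oxali (left) and of IFNγ (right) on each of 86799 regions without the other agent (x axis, log2) and with it (y axis, log2), as cells shaded by the number of regions on a log scale. The red line marks equal effects; points follow it on the left (r = 0.82) and flatten around 0 on the right (r = 0.39).

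Genes of the ribosome showed additive lower levels most plainly among the lists. All 24 listed ribosomal protein genes had a start-site region in the 4 lists, 36 regions in all. Their median ratios to Ctrl were -0.59 with Oxali, -0.52 with IFNγ and -1.18 with the combination, and the median departure was -0.00 (-0.21 to 0.29 under the alternatives). The combination was the lowest list at 32 of the 36 regions, against 51.6% of all start-site regions, and at least 2-fold below Ctrl at 24, against 23.3%. Rps23, of the small subunit, had pileups of 1124 in Ctrl, 677 in Oxali, 429 in IFNγ and 371 in Oxali + IFNγ. Its log2 ratios to Ctrl were -0.62, -1.05 and -1.69, and its departure was -0.01 (interval -0.25 to 0.23), although 1.25 on a linear scale. Of the 36 departures, 5 had an interval above 0 and 4 below it, against 26.8% and 4.72% of all start-site regions. The extremes were both secondary start sites: an Rpl18 region at chr7:45720407-45720635 was above the sum (0.95, interval 0.46 to 1.43), and an Rpl13 region at chr8:123100967-123101546 was below it (-0.64, interval -0.95 to -0.33). Ribosomal protein genes have many processed copies in the genome, so some of their reads may be misplaced.

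A fixed pair of criteria picked out regions where the combination passed both single treatments: at least 2-fold from Ctrl and at least 1.5-fold from each agent alone. In the downward direction 1208 regions met them (1.39%), and 1067 were start-site regions. Their median ratios were -0.69 with Oxali, -0.72 with IFNγ and -1.45 with the combination, and the median departure was -0.03. At 76.8% of them the interval of the departure spanned 0. Upward, 677 regions met the criteria (0.78%), 80 at start sites and 597 elsewhere. The 80 start-site regions had medians of 0.68 with Oxali, 0.07 with IFNγ and 1.37 with the combination, and a median departure of 0.70. In the other 597 the medians were 0.70, 0.16, 1.45 and 0.59. The criteria themselves use the combination level, so these departures are a description. Downward regions lay in high, GC-rich chromatin, with a median control level of 126 times background and 66.9% GC, and upward regions at 3.38 times background and 49.8% GC.

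Sequence, which the criteria did not use, differed between these sets. An ISRE match lay within 100 bp of the control summit in 17.5% of the 80 upward start-site regions (14 regions), against 3.82% of all start-site regions. Among the 597 other upward regions the share was 12.1%, against 4.97%. AP-1 matches stood in 35.0% of upward start-site regions, against 12.8% of all, and in 36.9% of the other upward regions, against 27.6%. A CTCF match was found in 1.25% of upward start-site regions, against 16.7%. In the 1067 downward start-site regions, ISRE matches were found in 2.72% and AP-1 matches in 2.72%. Level and GC content also differ between these sets, and their part in the shares was not tested.

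Of the gene lists, the interferon-induced GTPases had the highest median departure on the log2 scale. These guanylate-binding proteins and immunity-related GTPases attack membranes around intracellular pathogens. Start-site regions were found for 14 of 17 genes, 18 separate regions, with medians of 0.75 with Oxali, -0.12 with IFNγ, 0.97 with the combination and 0.35 for the departure. The departure was above 0 at 16 of the 18 (14 after centring), against 71.2% of all start-site regions. Its interval lay above 0 at 6 and below 0 at none, against 26.8% and 4.72% of all start-site regions. The combination was the highest of the 4 lists at 15 regions, against 16.9% of start-site regions, and at least 2-fold above Ctrl at 9, against 7.18%. The median departure ran from 0.14 to 0.35 over the alternatives, and stood at 0.14 after centring and 0.16 with the local background. On a linear scale it was 0.31, below the medians of 6 other lists, of which the receptor and JAK-STAT list was highest at 0.62.

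Tgtp1, which encodes a T-cell-specific GTPase, held the highest departure of the list. Its region at chr11:48991561-48992944 had pileups of 64 in Ctrl, 129 in Oxali, 44 in IFNγ and 276 in the combination. The combination was 2.02 above Ctrl on the log2 scale, against 1.12 with Oxali and -0.21 with IFNγ, a departure of 1.11 (interval 0.48 to 1.74). Gbp6 at chr5:105293232-105294658 followed closely, with pileups of 65, 132, 48 and 281 in the same order and a departure of 1.00 (0.38 to 1.61). In both regions Oxali alone lay above Ctrl and IFNγ alone did not. The local background around the Tgtp1 summit was 12.1 in Ctrl, 15.6 in Oxali, 9.62 in IFNγ and 31.8 in the combination. Around Gbp6 it was 31.9 in the combination. Measured over that local background the departures were 0.28 and 0.34. Tgtp1 and Gbp6 have close copies in the genome, Tgtp2 and Gbp10, so some reads may come from those.

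Not every GTPase departed from the sum. A second Gbp9 start site at chr5:105109818-105111086 had pileups of 40, 157, 43 and 208 in Ctrl, Oxali, IFNγ and the combination, and the lowest departure of the list at -0.23 (-0.92 to 0.46). The start-site region that Gbp4, Gbp8 and Gbp9 share in the annotation had 37, 112, 28 and 168, with a combination 2.09 above Ctrl and a departure of 0.46 (-0.33 to 1.24). Gbp7, whose region carries 1 ISRE and 2 GAS matches, had 163, 305, 117 and 426 and a departure of 0.43 (0.03 to 0.83). Irgm2 at chr11:58214591-58215402 had 336, 347, 230 and 477 and a departure of 0.48 (0.16 to 0.79). Mx2 had 473, 566, 373 and 758 and 0.23 (-0.02 to 0.48). In each of these the combination was the highest of the 4 lists by level. Over the local background the departure was 0.16 at Irgm2, 0.29 at Gbp7, 0.16 at Mx2, -0.03 at the Gbp4, Gbp8 and Gbp9 region and -0.63 at the second Gbp9 start, which on a linear scale stood at 0.09.

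Outside the lists and the filter on pileups, the region furthest above the sum of all 86799 lay in an intron of Ifi47, another interferon-induced GTPase, and was chosen after its values were seen. At chr11:49081160-49081711 its pileups were 72 in Ctrl, 82 in Oxali, 27 in IFNγ and 205 in the combination. The departure was 2.21 (interval 1.47 to 2.94). Its local background also moved with treatment, at 16.4, 29.6, 10.3 and 39.3.

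Antiviral interferon-stimulated genes had the same median departure as start sites at large. For 19 of 26 genes, 24 regions, the medians were -0.12 with Oxali, -0.29 with IFNγ and -0.20 with the combination, and the departure of 0.13 turned to -0.08 after centring. Its interval lay above 0 at 5 of the 24 regions and below at none, a share above 0 no larger than the 26.8% of all start-site regions. Oasl2, an oligoadenylate synthetase-like gene, had the highest departure, with pileups of 90, 135, 72 and 269 in Ctrl, Oxali, IFNγ and the combination (0.79, interval 0.25 to 1.32). Oas3 had 156 in Ctrl, 489 in Oxali, 108 in IFNγ and 619 in the combination. Its 1.90 over Ctrl was close to the 1.76 of Oxali alone, for a departure of 0.34 (-0.05 to 0.73). Ifit1 likewise had 104, 242, 99 and 352 and a departure of 0.08 (-0.38 to 0.54), or -0.19 over the local background. The lowest value was at a secondary start of Ddx58, the gene of the RNA sensor RIG-I (96, 127, 62 and 90; -0.40, counting SE 0.31).

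Several interferon genes fell outside the set because a list lacked their region. At Oas1a, Cxcl11 and Ifi44 only the lists with Oxali held a start-site region, with pileups of 52, 71 and 42 in Oxali and 103, 133 and 56 in the combination. At Oas2, Zbp1 and Tgtp2 only the combination list did, at 52, 45 and 76. Isg15 had 359 in Oxali, 224 in IFNγ and 410 in the combination, with no region listed in Ctrl. No departure can be given for these genes. Over the union of the lists, 34385 regions were called in both Oxali lists alone, 25311 in the combination alone, 6797 in IFNγ alone and 2031 in IFNγ and the combination.

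Class I antigen presentation genes held both additive regions and regions above the sum. All 17 genes were covered by 24 regions, with medians of -0.38 with Oxali, -0.40 with IFNγ, -0.56 with the combination and 0.19 for the departure, which became -0.02 after centring. The interval lay above 0 at 9 of the 24 regions and below it at 2, against 26.8% and 4.72% of all start-site regions. Psmb9, an immunoproteasome subunit, and Tap1, a peptide transporter subunit, share a divergent region at chr17:34186915-34188453. Its pileups were 1189 in Ctrl, 723 in Oxali, 632 in IFNγ and 553 in the combination, ratios of -0.61, -0.58 and -1.19 that give a departure of -0.01 (-0.22 to 0.21), and of 0.43 on a linear scale. Psmb8, another immunoproteasome subunit, had 161, 200, 140 and 216 and a departure of -0.22 (-0.65 to 0.21).

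B2m, the light chain of class I molecules, was above the sum. Its region at chr2:122147233-122148430 had pileups of 1220 in Ctrl, 608 in Oxali, 749 in IFNγ and 876 in the combination. The log2 ratios of -0.90 with Oxali and -0.37 with IFNγ sum to a lower value than the -0.57 of the combination, and the departure was 0.70 (0.50 to 0.90). A region just upstream had 202, 210, 171 and 238 and -0.11 (-0.51 to 0.29). The class I heavy chain gene H2-D1 was similar to B2m, with 1047, 622, 592 and 763 and a departure of 0.59 (0.38 to 0.80), and H2-K1 had 851, 607, 517 and 642 and 0.27 (0.04 to 0.49). At the 5′ regions of B2m, H2-D1 and H2-K1 the combination was below Ctrl, by less than the sum over the genome background. Over the local background the departure was 0.61 at B2m and 0.39 at H2-D1, and turned to -0.03 at H2-K1. H2-D1 and H2-K1 have close copies, so their reads are uncertain.

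Nlrc5, the transactivator of class I genes, differed between its 3 start-site regions. At its 5′ end, chr8:94433601-94434720, pileups were 89 in Ctrl, 106 in Oxali, 73 in IFNγ and 206 in the combination, which was 1.12 above Ctrl against 0.36 and 0.05 for the single treatments. The departure was 0.71 (0.15 to 1.27), and 0.20 over the local background, which was 18.4 in the combination and at the genome value in the other lists. A start within the gene, chr8:94482081-94482406, had the highest departure of the class I list at 0.87 (0.07 to 1.67) with pileups of 69, 45, 36 and 62. Another start, chr8:94524280-94525306, was at the sum with 324, 366, 221 and 356 (-0.02, -0.34 to 0.31). Tap2, the other transporter subunit, ranged likewise over its start sites, from 0.72 (-0.03 to 1.47; 45, 46, 53 and 129) at chr17:34203032-34203796 to -0.21 (-0.56 to 0.13; 297, 328, 202 and 278) at chr17:34204345-34205160. The remaining Tap2 start had 171, 157, 96 and 177 and 0.48 (-0.00 to 0.95). Tapbp, the transporter's partner tapasin, had the lowest departure of the list at a secondary start (-0.46, -0.71 to -0.21).

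Genes of the receptor and JAK-STAT pathway were mostly lower in all 3 treated lists, as start sites at large were in the median. Over 19 regions of 15 genes the medians were -0.52, -0.59 and -0.90, and the departure of 0.11 became -0.10 after centring. The combination was the lowest list at 16 of the 19, against 51.6% of start-site regions, and 9 intervals lay above 0, against 26.8%. Ifngr1 had pileups of 2133, 937, 983 and 897 in Ctrl, Oxali, IFNγ and the combination, for a departure of 0.52 (0.35 to 0.70). Ifngr2 was at the sum at its 5′ end (140, 138, 99 and 122; -0.21, -0.72 to 0.30). A start site within the gene at chr16:91561103-91561407 had 88, 83, 47 and 141, the highest departure of the list at 1.14 (0.50 to 1.78). A secondary Stat2 start had the lowest (-0.30, -0.96 to 0.37).

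Interferon regulatory factors had a median departure of 0.18 over 11 regions of 9 genes (-0.03 after centring), with 3 intervals above 0 (26.8% of all start-site regions). Irf1, an early interferon response gene, had start-site pileups of 1721, 1173, 930 and 1039 and a departure of 0.18 (0.02 to 0.35). This was 0.0068 over the local background and -0.03 after centring. The 1 other region in the Irf1 body or within 5 kb had a departure of 1.83, with its interval above 0. Its ratios to Ctrl were -0.92 with Oxali, -0.29 with IFNγ and 0.61 with the combination. The extremes of the start-site regions were secondary starts of Irf8 at 0.62 (-0.03 to 1.26; 63, 102, 48 and 172) and of Irf2 at 0.01 (-0.18 to 0.21). Chemokines and checkpoint ligands had 6 regions for 5 of 11 genes and a median of -0.09. Cd274, which encodes PD-L1, had the highest value: 135 in Ctrl, 146 in Oxali, 90 in IFNγ and 206 in the combination gave 0.55 (0.06 to 1.04), and 0.07 over the local background. Cxcl10, a chemokine that attracts T cells, had 93, 185, 87 and 208 at its 5′ end (-0.27, -0.77 to 0.24) and the lowest value at a neighbouring region (-0.57, -1.41 to 0.28, and -0.18 on a linear scale). Its combination level was that of Oxali alone.

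NF-κB subunits, inhibitors and targets had a median departure of 0.19 over 27 regions of 17 genes, -0.02 after centring, with 12 intervals above 0 and 1 below, against 26.8% and 4.72% of start-site regions. Tnip1, an NF-κB inhibitor, had 72 in Ctrl, 102 in Oxali, 50 in IFNγ and 194 in the combination, and a departure of 0.92 (0.30 to 1.55). Ikbke, an IκB kinase relative, had the highest value at an upstream start (0.96, 0.33 to 1.58; 85, 74, 59 and 144). Tnfaip2 had 136, 225, 83 and 332 and 0.74 (0.28 to 1.21). Relb, an NF-κB subunit, was above the sum (1891, 1087, 588 and 821; 0.75, 0.56 to 0.94), but at the summits nearest to the control summit its departure was 0.02. Nfkb1 was near the sum at its 5′ end (555, 480, 425 and 463; -0.20, -0.46 to 0.06). At a start within the gene it had 366, 492, 243 and 524 and 0.15 (-0.14 to 0.44). At the start at chr3:135594321-135594841 it had the lowest departure of the list, -0.80 (-1.54 to -0.06), with 45, 107, 41 and 81.

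Targets of p53, the DNA damage response factor, had 31 regions for 23 of 24 genes, medians of -0.51, -0.54 and -0.91, and a departure of 0.10 (-0.11 after centring), with 12 intervals above 0 and 6 below, against 26.8% and 4.72% of start-site regions. Cdkn1a, the p21 cell-cycle inhibitor, was near additive on the log2 scale, with 1342 in Ctrl, 769 in Oxali, 701 in IFNγ and 608 in the combination, a departure of 0.07 (-0.13 to 0.27) and of 0.63 on a linear scale. Bax, an effector of apoptosis, had the highest value (760, 390, 230 and 286; 0.75, 0.44 to 1.05), and a secondary start of Eda2r the lowest (-0.40, -0.65 to -0.15). AP-1 factor genes had 22 regions for 11 of 12 genes, a median of 0.05 (-0.16 after centring), 4 intervals above 0 and 1 below, against the same shares. Maff was highest at 0.51 (0.35 to 0.68), or 0.26 at the summits nearest to the control summit, and Batf3 lowest at -0.28 (-0.73 to 0.16). Over the 10 lists, 2 regions in all departed 2-fold upward, those of Tgtp1 and Ifngr2, and none downward, where 1.37% and 0.253% of all start-site regions did. After centring none did so upward and 1 downward, in the NF-κB list.

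**Figure D4:**
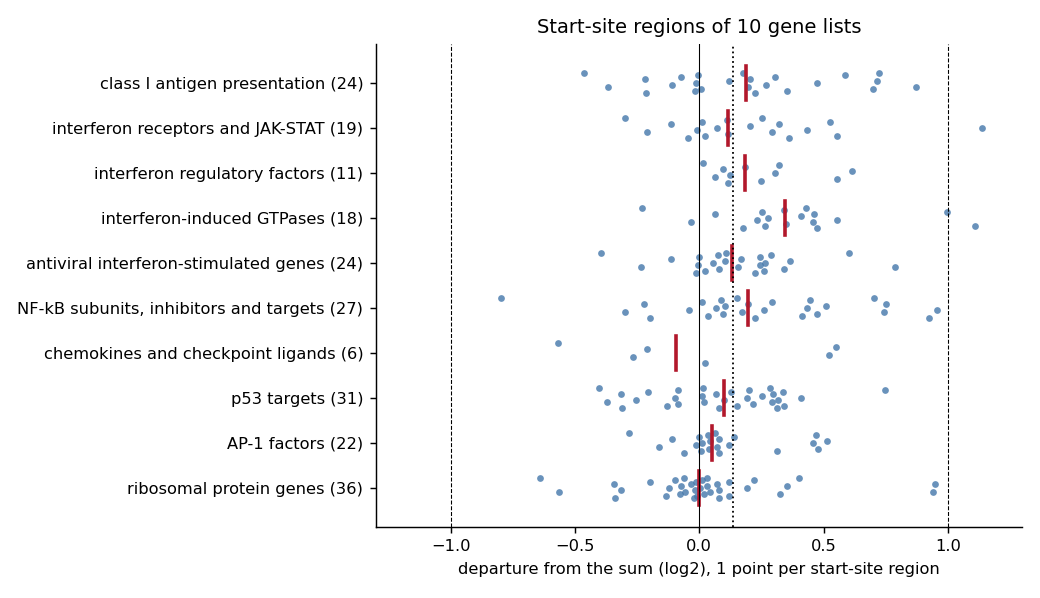
Departure from the sum (x axis, log2) of each start-site region of 10 gene lists (y axis, number of regions in parentheses). Red bars, list medians; dotted line, the median of all start-site regions (0.13); dashed lines, 2-fold. The GTPase list has the highest median (0.35), and ribosomal protein genes cluster around 0.

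Other regions in the bodies of these genes or within 5 kb of them were nearer to one another. Median departures there ran from 0.04 at p53 targets (56 regions) to 0.33 at interferon regulatory factors (20 regions), beside 0.18 for all other regions. Over the 10 lists, 2-fold departures upward were most numerous around receptor and JAK-STAT genes, at 5 of 42 regions, against 3.34% of other regions. Around the 14 regions of the GTPase genes the median was 0.26 and none departed 2-fold in either direction, where 0.782% of other regions lay 2-fold below the sum.

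Departures of at least 2-fold upward were found at 276 start-site regions (1.37%) and 2225 other regions (3.34%). The IFNγ list was the lowest of the 4 at 88.0% of the former and 87.2% of the latter, against 32.4% and 52.2% of all regions. Their medians were -0.15 and -0.07 with Oxali, -0.91 and -0.88 with IFNγ, and 0.22 and 0.25 with the combination. The departure holds each of these levels, so a low IFNγ list and a high combination are part of how the regions were chosen, and these values are a description. Pileups were small, with a median of 41 and 38 in the IFNγ list, and 30.1% and 29.1% had at least 50 in every list. CTCF matches were found in 30.1% of the start-site and 32.7% of the other regions, against 16.7% and 25.2% of all, and AP-1 matches in 15.6% and 13.2%, against 12.8% and 27.6%. ISRE matches were found in 3.26% and 5.93%, against 3.82% and 4.97%.

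Among regions with a pileup of at least 50 in every list, summits within 150 bp and under 50% repeat-masked sequence (49669 regions), the start-site region furthest above the sum was at the noncoding gene Gm48604, chr9:44292543-44293081. It had 169 in Ctrl, 102 in Oxali, 59 in IFNγ and 164 in the combination, a departure of 1.67 (1.12 to 2.23). Next came Camk2d, a calcium-dependent kinase subunit (169, 121, 53 and 162; 1.56, 1.00 to 2.12), and Spef2, a sperm flagellum gene (137, 73, 73 and 164; 1.55, 0.97 to 2.12). Acadsb, of fatty acid oxidation, had 162, 156, 54 and 201 (1.42, 0.88 to 1.96). In these 4 the combination was close to Ctrl. The pseudogene Pafah1b1-ps2 differed, with 221 in Ctrl, 452 in Oxali, 77 in IFNγ and 599 in the combination (1.40, 0.98 to 1.81, and 0.64 on a linear scale).

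Away from start sites, the Igf2bp3 intron at chr6:49143690-49144239 had the highest departure by this rule, with pileups of 187 in Ctrl, 135 in Oxali, 57 in IFNγ and 221 in the combination (1.89, 1.37 to 2.42, and 1.20 over the local background). Introns of Adamts12 (142, 58, 51 and 99; 1.72, 1.06 to 2.38) and of Dock3 (178, 92, 65 and 159; 1.71, 1.16 to 2.26) followed. An intergenic region 33527 bp from the start of Ano6 had 361, 80, 135 and 137 (1.66, 1.18 to 2.15), and one 107112 bp from the start of Kdr had 136, 105, 51 and 177 (1.64, 1.06 to 2.22). At Adamts12 and Ano6 each agent alone was at least 2-fold below Ctrl, and the combination was not below the lower of them.

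Departures of at least 2-fold downward were fewer on the main scaling, at 51 start-site regions (0.253%) and 521 other regions (0.782%). This order depended on the scaling. Over all regions, 907 lay above and 1421 below after centring on start-site regions, and 1138 and 1185 after centring within GC classes. Choosing regions by a low departure favours high single treatments and a low combination, so their medians too are a description. They were 0.73 with Oxali, 0.90 with IFNγ and 0.35 with the combination at start sites, and 0.72, 0.89 and 0.33 elsewhere. AP-1 matches were found in 31.4% and 35.3% of them, against 12.8% and 27.6% of all regions, and CTCF matches in 9.80% and 9.98%, against 16.7% and 25.2%. Of these regions, 19.6% and 29.9% were at least 50% repeat-masked, against 4.33% and 13.0% of all, and the median control pileup was 47 and 44.

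At Nfe2l1, which encodes a transcription factor of the proteasome stress response, the region at chr11:96822638-96823200 had 161 in Ctrl, 150 in Oxali, 348 in IFNγ and 156 in the combination. IFNγ alone was 1.45 above Ctrl on the log2 scale and the combination -0.13, a departure of -1.59 (-2.01 to -1.17). The noncoding gene Gm39164 had a like pattern (99, 82, 203 and 98; -1.31, -1.86 to -0.76). At the pseudogene Gm49009 (51, 74, 78 and 60; -1.45, -2.15 to -0.74) and at Lhfpl2 (52, 68, 85 and 66; -1.28, -1.98 to -0.58) the combination was below each agent alone. Bbs9, a gene of the primary cilium, had 59, 134, 104 and 141, so each agent alone was about as far above Ctrl as both together (-1.27, -1.85 to -0.70, and -0.71 on a linear scale).

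The Gm5444 repeat at chr13:4778338-4778769 was the furthest below the sum away from start sites, with 131 in Ctrl, 137 in Oxali, 343 in IFNγ and 165 in the combination. Its departure was -1.65 (-2.09 to -1.21), and -1.01 over the local background. As a tandem repeat, its reads may be hard to place. The other 4 shared a different order, in which Oxali, IFNγ and the combination were all well above Ctrl and near one another. The intron of Basp1 had 86, 205, 196 and 243 (-1.47, -1.93 to -1.02). The intron of Desi2, with 2 AP-1 matches in the sequence above, had 84, 234, 151 and 206 (-1.56, -2.03 to -1.09). A region in the pseudogene AC169509.1 near Lpp had 56, 140, 135 and 158 (-1.63, -2.18 to -1.07), and one 214332 bp from the start of Hrh4 had 95, 249, 180 and 245 (-1.48, -1.92 to -1.04). On a linear scale none of these 4 was 2-fold below the sum: Basp1 stood at -0.74, Desi2 at -0.89, AC169509.1 at -0.83 and the region near Hrh4 at -0.80. Without the filter, the lowest 2 regions of all were neighbouring, fully repeat-masked regions near Aig1 (221, 178, 289 and 54, and 223, 175, 300 and 55).

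**Figure D5:**
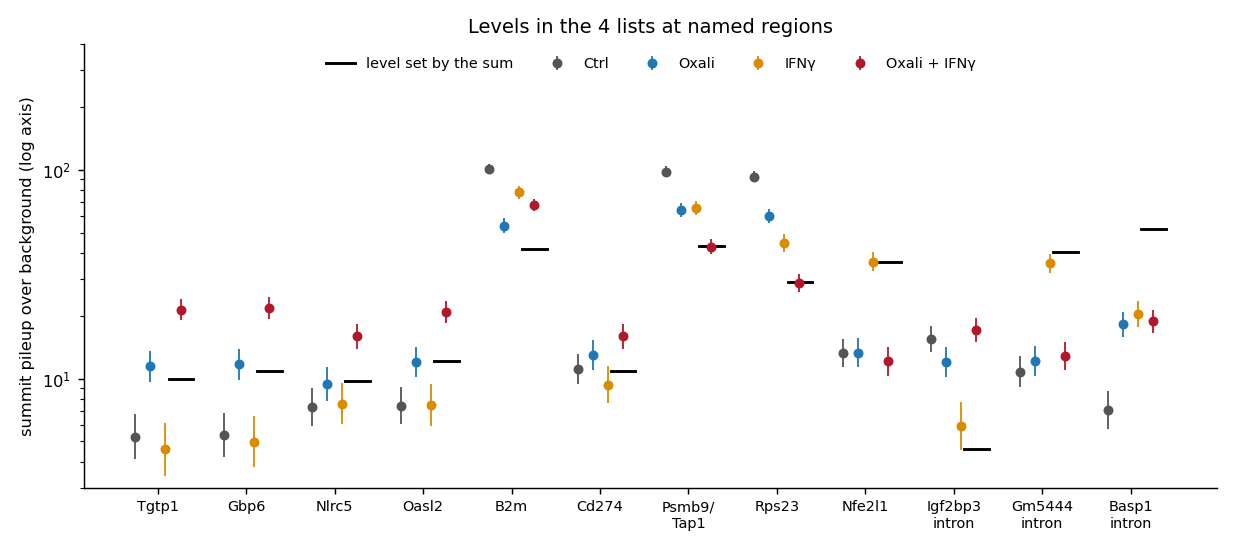
Summit pileup over the genome background (y axis, log scale) in each of 4 lists at 12 named regions (x axis). Points, level of the pooled list with its 95% counting interval; black bars, the level that the sum of the single treatments sets. Tgtp1 to Cd274 lie above their bars, Psmb9/Tap1 and Rps23 on them, and Nfe2l1, Gm5444 and Basp1 below.

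AP-1 matches moved with the departure across all regions as well. Other regions with a match had a median departure of 0.06 and those without one 0.23, with medians of 0.46 and 0.18 for Oxali and -0.03 and -0.25 for IFNγ. Other regions with a CTCF match had a median of 0.29 against 0.14 without, and IFNγ ratios of -0.34 against -0.12. ISRE and GAS matches shifted the median little, at 0.20 with either match against 0.18 without. These are descriptions over regions, and level and GC content were not held equal.

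By gene, 1854 protein-coding genes had at least 8 regions in the body or within 5 kb. Their median departures ran from -0.48 to 0.92, were above 0 in 87.8% of genes, and reached 2-fold in none. The share above 0 depends on the scaling: the median over these genes was 0.17, less than the 0.21 that centring subtracts. Ppp1r37, a phosphatase regulator, was highest at 0.92 over 10 regions, 6 of them with an interval above 0 and 1 below. Crtac1 (0.77, 10 regions), the homeobox gene Pknox2 (0.73, 9 regions), the DNA demethylase gene Tet1 (0.68, 10 regions) and the NFAT family gene Nfatc3 (0.68, 9 regions) followed. The predicted gene Gm10719, which lies at the start of the chromosome 9 assembly, was lowest at -0.48 with all 8 intervals below 0. Then came Baiap2l1 (-0.33, 11 regions), Eda2r (-0.30, 22 regions), Sh3kbp1 (-0.28, 11 regions) and Dip2b (-0.26, 14 regions). Eda2r and Sh3kbp1 lie on chromosome X.

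The X chromosome stood apart with a median departure of 0.07 over 2328 regions, against 0.14 to 0.20 on the autosomes, and the 41 regions of chromosome Y had -0.24. Of the prostate epithelial markers, Hoxb13, Foxa1 and Krt8 had a start-site region in all 4 lists. At Cdh1 no region was listed at the start site, and at Krt18 and Epcam only weak ones in part of the lists. Of the markers of endothelium and fibroblasts, Col1a1 had a start-site region in all 4 lists, with a departure of 0.14 (-0.14 to 0.42) at its 5′ end. Col1a2 had weak regions in each list, with pileups of 35 in Ctrl, 46 in Oxali, 24 in IFNγ and 54 in the combination, but no merged region shared by all 4. Pecam1 was listed in Ctrl (29) and the combination (35), and Cdh5 and Pdgfrb in no list. Of the leukocyte markers, Ptprc was listed in Oxali (33) and the combination (36), and Cd3e and Itgam in no list.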

How the data were processed

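ATAC-seq was available for 8 libraries in 4 groups, 2 per group. The authors trimmed reads with cutadapt, aligned them to mm10 with Bowtie2 2.2.8, removed low-quality, duplicate and mitochondrial reads with SAMtools, and pooled both libraries of each group. MACS2 2.1.0 then called peaks at p of 0.01, in 150 bp windows centred on cut sites, without a control library. Each deposited list gives a fold ratio, (summit pileup + 1) over (local background + 1), with its −log10 p-value. It also holds a −log10 q-value, a score that the authors' caller corrected within the list.

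The summit pileup and local background were solved from the deposited fold and p, which recovered 100% of summits to within 0.1%, and the calculation was tested on simulated data. Regions overlapping by 1 bp were merged over the lists. The highest summit of each list was divided by the genome background, its lowest local background. Start-site regions lay within 1 kb of a GENCODE M21 transcript start. Intervals are ±1.96 standard errors from pileups as counts. They cover counting error only. Python 3.11.15, numpy 2.4.6, scipy 1.17.1 and pandas 2.3.3 were used.

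With 1 pooled list a group, no test was made. The members and lists were chosen with earlier results of these data known. Named regions were the 5 highest and 5 lowest departures at start sites and elsewhere, among regions with a pileup of at least 50 in each list, summits within 150 bp and under 50% masked bases. They were joined by the 5 highest and 5 lowest genes by median over at least 8 regions, the genes that the study discusses, and the extremes of each list. The cisplatin list was not used. Sequences are RefSeq's GRCm38 (C57BL/6J), while Myc-CaP cells derive from FVB mice. Alternatives changed the background, centring, summit, merging, filters, scale, window and threshold. Results for some genes are not reported here.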

Additional observations from a re-analysis of the deposited data

Results flagged for a closer look

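In an intron of Dock3, which encodes an activator of the GTPase RAC1, the effect of IFNγ had opposite directions without and with Oxali, each by at least 1.5-fold. IFNγ over Ctrl was -1.12 on the log2 scale, and Oxali + IFNγ over Oxali was 0.59. The difference between both, 1.71, is the departure given above. Dock3 was named for a high departure, so opposite directions are part of how it was chosen. Other regions named in this way had the same signs. The values were -1.38 and 0.52 at Igf2bp3, -1.14 and 0.58 at Adamts12, and -1.08 and 0.58 near Ano6. They were -1.08 and 0.56 near Kdr, and -0.57 and 0.97 at Spef2. The opposite effect at Dock3 was not tested, since each group is 1 pooled list.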

How the results depend on the processing

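No paired analysis was possible because both libraries of each group were pooled before peaks were called, and leaving out each library could not be run for the same reason. The median departures of 0.13 at start-site and 0.18 at other regions became 0.072 and 0.16 with the local background, -0.076 and -0.031 after centring on start-site regions, and -0.017 and 0.0083 after centring within GC classes. They were 0.14 and 0.19 with 1 interval of each list, 0.13 and 0.17 with pileups of at least 50, and 0.29 and 0.15 on a linear scale, which left out 306 regions without a positive sum. At other regions the median was 0.19 with the summit nearest to the control summit, 0.19 with summits within 150 bp and 0.18 without masked regions. Counts of 2-fold departures, 2501 above and 572 below, became 907 and 1421 after centring, 1138 and 1185 within GC classes, 730 and 203 with pileups of at least 50, 5338 and 332 on the linear scale, and 13071 and 3405 at a 1.5-fold threshold. Centring subtracts a constant of 0.21, which by construction moves the counts in opposite directions, and the filter on pileups leaves fewer regions. The cause of the other shifts was not tested. The remaining alternatives moved both counts by less than 1.5 times. At this depth the counting interval spanned 0 at 72.0% of all regions.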
